A study of Homo sapiens with 3 samples.

Results

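Host factors that limit the RNA or the cDNA of LINE-1 (L1) were followed in 293T cells in which the L1 antisense promoter (ASP) had been targeted. They are the 8 genes MOV10, ZC3HAV1, SAMHD1, TREX1, ADAR, RNASEH2A, RNASEH2B and RNASEH2C, taken by name from the 23284 genes listed in each library. Every one of the 8 was found, and all 8 had a mean FPKM (read fragments scaled to the length of a gene's exons and to the mapped depth of its library) of at least 1, as did 12830 genes in all. In each of the 3 libraries the 8 genes were expressed, and their FPKM stayed within 1.5-fold between any pair of libraries. The widest spread was that of TREX1, whose highest FPKM was 1.25 times its lowest.

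The libraries came from 293T cells, a human embryonic kidney line, that expressed dCas9-VP64, a Cas9 unable to cut DNA fused to a transcriptional activator. With it the cells expressed either a mock sgRNA from the parental guide vector or a guide to the L1 ASP, sgL1ASP #1 or sgL1ASP #3, so dCas9-VP64 was shared by all groups, mock included. The study introduced these plasmids by transient transfection in its assays, and the culture time before the RNA was taken is not given in the sources used here. There was 1 library per condition. Differences between conditions thus lack replicates, and no p-value can be printed for them. A transiently transfected culture is not a clone and can hold cells without the plasmids. In bulk RNA, fewer cells with a transcript and less transcript per cell cannot be told apart.

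L1 moves by copying its RNA into DNA at the site of insertion, so the RNA, the RNA-DNA hybrid and the new cDNA are all points at which a host factor can act. MOV10 is an RNA helicase that binds L1 RNA in cytoplasmic granules, and ZC3HAV1 (the zinc finger antiviral protein ZAP) binds CpG-rich RNA and brings it to decay. ADAR edits adenosine to inosine in double-stranded RNA. SAMHD1 cleaves dNTPs, the building blocks of reverse transcription, and TREX1 is an exonuclease that degrades cytosolic DNA. RNASEH2A, RNASEH2B and RNASEH2C are the catalytic and the accessory subunits of RNase H2, which cuts the RNA of RNA-DNA hybrids and removes single ribonucleotides from DNA. Reports on RNase H2 differ on whether it limits or aids L1. Loss of TREX1, SAMHD1, ADAR or an RNase H2 subunit causes Aicardi-Goutières syndrome, an inherited interferon disease.

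Markers of the line were present, with 7 of 8 listed markers at a mean FPKM of at least 1. The intermediate filament gene VIM was the highest, at 807 in mock, and PAX2 was the lowest, between 0.522 and 0.658. Of 12 markers of other cell types, 4 were listed at 0 in every library and 2 had a mean FPKM of at least 1, OLIG2 being the highest. Their summed FPKM was 9.38 in mock, 8.06 with sgL1ASP #1 and 9.38 with sgL1ASP #3. The files hold no read counts. The steps between low FPKM values put the depth at about 10400000 reads for mock, 10300000 for sgL1ASP #1 and 8700000 for sgL1ASP #3. The 95% intervals below are exact binomial intervals of a ratio of FPKM at the reads so estimated, and they cover counting error only.

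The 8 genes covered a wide range of levels. RNASEH2A was the highest, above 95.5% of the 12830 genes in mean FPKM, and TREX1 the lowest, above 27.5% of them. By mean FPKM, which is set per length of exon, the order was RNASEH2A, RNASEH2C, ADAR, MOV10, RNASEH2B, SAMHD1, ZC3HAV1 and TREX1. The ranges of neighbours over the 3 libraries were apart, except for MOV10 and RNASEH2B, whose ranges overlapped. MOV10 had 1.11 times the FPKM of RNASEH2B in mock, 0.965 times with sgL1ASP #1 and 1.11 times with sgL1ASP #3.

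**Figure D1:**
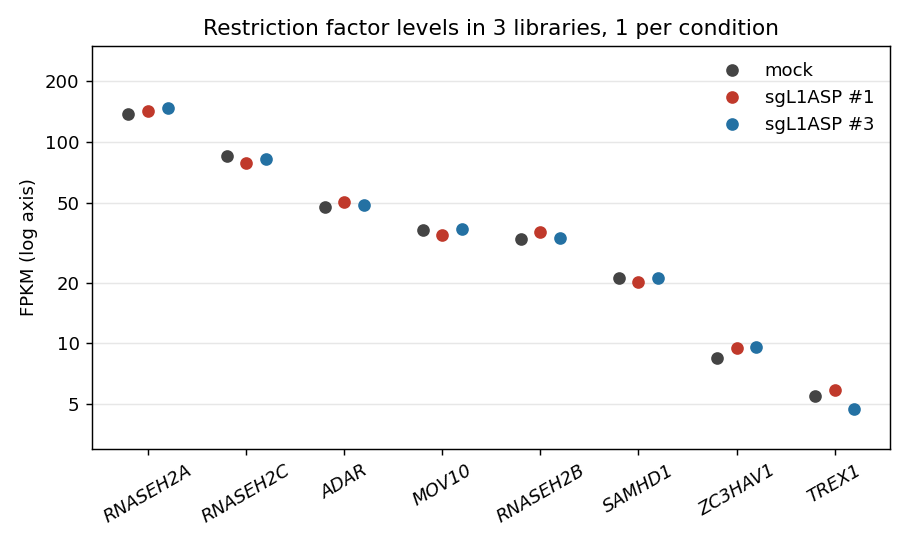
FPKM (log axis) of the 8 factors in mock, sgL1ASP #1 and sgL1ASP #3, with 1 point per library and no error bar, since there was 1 library per condition. The 3 points of each gene lie close together beside the distance between RNASEH2A at 137 to 147 and TREX1 at 4.70 to 5.88, and MOV10 and RNASEH2B share a range.

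Whether L1 ASP targeting went with a change in these factors was examined for each guide against mock and for the guides against each other. More than 1.5-fold change in log2(FPKM + 0.1) was found in 0 of the 8 genes with sgL1ASP #1, where it was found in 3.55% of the 12830 genes. It was found in 0 of 8 with sgL1ASP #3, against 3.80% of all genes, and in 0 of 8 between the guides, against 3.77%. At these shares, 8 genes hold less than a single called gene on average, so the count of 0 does not set the factors apart from other genes. Past 1.1-fold there was 1 of the 8 with sgL1ASP #1 (35.1% of all genes), 2 with sgL1ASP #3 (35.2%) and 1 between the guides (35.1%). These were ZC3HAV1 with either guide, and TREX1 with sgL1ASP #3 and between the guides.

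The direction was mixed. Of the 8 genes, 5 had higher FPKM than mock with sgL1ASP #1, as did 50.3% of all genes, and 5 with sgL1ASP #3, as did 50.4%. ZC3HAV1, ADAR, RNASEH2A and RNASEH2B were above mock with both guides, which are 4 of 8 against 33.7% of all genes. SAMHD1 and RNASEH2C were below mock with both, 2 of 8 against 33.0%. Both guides are set against the same mock library here. The FPKM of every library were also scaled to 1 common sum. The median log2 change over all genes was then -0.092 for sgL1ASP #1 and -0.12 for sgL1ASP #3. A ratio to mock of 1 at this scaling thus lies above that of the median gene. Above mock were then 3 of the 8 genes with sgL1ASP #1, beside 25.0% of all genes, and 1 with sgL1ASP #3, beside 20.8%. ZC3HAV1 alone stayed above mock with both guides. The study searched for L1 ASP-related genes in the order mock, sgL1ASP #3, sgL1ASP #1. In unscaled FPKM and without a fold limit, ADAR and RNASEH2B followed it, 2 of 8 against 16.5% of all genes. The count is near that share and does not set the members apart. After scaling to a common sum both were below mock with sgL1ASP #3, at ratios of 0.943 and 0.932. ZC3HAV1 then followed the order, at 1.06 with sgL1ASP #1 and 1.04 with sgL1ASP #3. The share of all genes was not computed at this scaling.

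The median log2 change over the 8 genes was 0.072 with sgL1ASP #1, 0.020 with sgL1ASP #3 and -0.023 between the guides. The median absolute log2 change was 0.095, 0.045 and 0.065, beside 0.094, 0.095 and 0.093 over all genes. Genes with mean FPKM of 10 to 100, the band of SAMHD1, RNASEH2B, MOV10, ADAR and RNASEH2C, had a median absolute change of 0.071 with sgL1ASP #1. In the band of 1 to 10, which holds ZC3HAV1 and TREX1, it was 0.14.

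**Figure D2:**
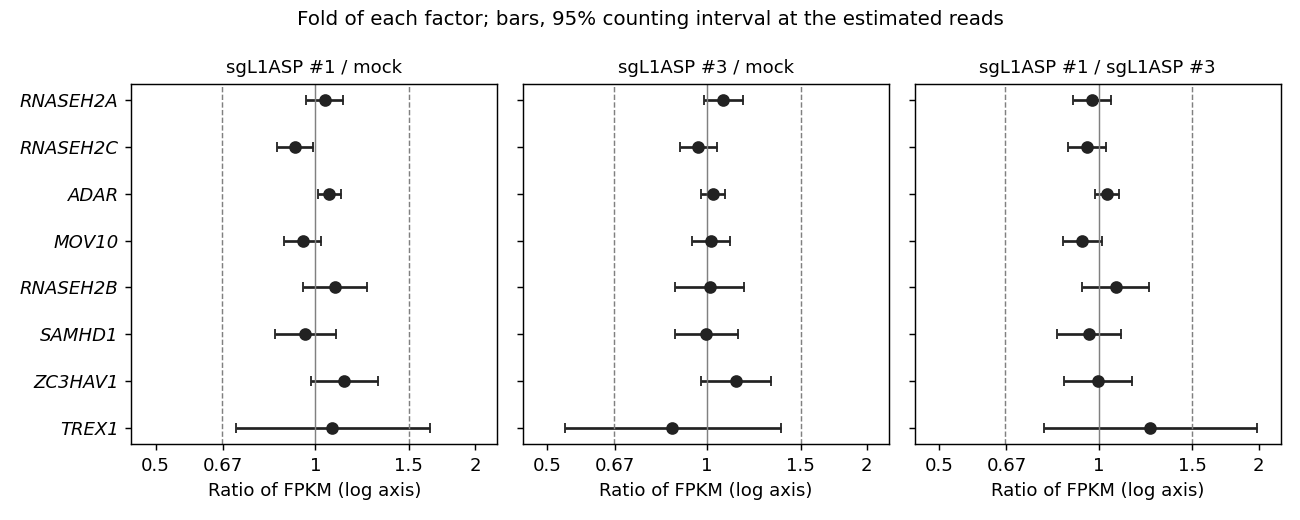
Ratio of FPKM (log axis) of each factor for sgL1ASP #1 to mock, sgL1ASP #3 to mock and sgL1ASP #1 to sgL1ASP #3, with bars for the 95% counting interval at the estimated reads and dashed lines at 1.5-fold. All 24 points lie within the dashed lines, and 22 of the 24 intervals hold a ratio of 1, those of RNASEH2C and ADAR with sgL1ASP #1 being the others. The share of all genes whose interval holds 1 was not computed.

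Among the factors that act on RNA, MOV10 had FPKM 36.4 in mock, 34.5 with sgL1ASP #1 and 37.01 with sgL1ASP #3. It was thus lowest in sgL1ASP #1 and close to mock in sgL1ASP #3. The ratio to mock was 0.947 (95% counting interval 0.874 to 1.03) with sgL1ASP #1 and 1.02 (0.936 to 1.104) with sgL1ASP #3, so both intervals hold 1. After scaling to a common FPKM sum the ratio with sgL1ASP #1 was 0.887 (0.819 to 0.962), below 1. The log2 change was then -0.17, beside a median of -0.092 over all genes. MOV10 lies on chromosome 1 of GRCh37 from 113215763 to 113243378, and a noncoding gene on the other strand overlaps it. Its germline paralog MOV10L1, a piRNA helicase, had FPKM 0.336, 0.254 and 0.505 in mock, sgL1ASP #1 and sgL1ASP #3.

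ZC3HAV1, on chromosome 7 from 138728261 to 138816868 and with the pseudogene RPL17P28 inside it on the same strand, had FPKM 8.42 in mock, 9.53 with sgL1ASP #1 and 9.56 with sgL1ASP #3. It was lowest in mock, and the values with the 2 guides nearly coincided. The ratio to mock was 1.13 (0.980 to 1.31) with sgL1ASP #1 and 1.14 (0.975 to 1.32) with sgL1ASP #3. About 360 reads were estimated for it in mock, and at this depth neither interval excludes 1. A larger change in absolute log2 terms was seen in 26.1% of all genes with sgL1ASP #1 and in 25.4% with sgL1ASP #3. The long and short ZAP isoforms are not told apart in gene values. The paralog ZC3HAV1L, which lacks much of the ZAP protein, was higher than ZC3HAV1 in each library, with FPKM 13.8, 14.8 and 14.1. MOV10 had 4.32 times the FPKM of ZC3HAV1 in mock, 3.62 times with sgL1ASP #1 and 3.87 times with sgL1ASP #3.

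ADAR, on chromosome 1 from 154554171 to 154600489, had FPKM 47.4 in mock, 50.3 with sgL1ASP #1 and 48.5 with sgL1ASP #3. Its ratio to mock was 1.06 (1.01 to 1.12) with sgL1ASP #1 and 1.02 (0.972 to 1.08) with sgL1ASP #3. ADAR had the most estimated reads of the 8 genes, about 3100 in mock, and so the narrowest interval. The interval with sgL1ASP #1 lies just above 1, but after rescaling to the same FPKM sum the log2 change was -0.0072 and the interval held 1. The ratio with sgL1ASP #3 was then 0.943 (0.895 to 0.993), below 1, at a log2 change of -0.085. The median log2 changes over all genes at this scaling were -0.092 with sgL1ASP #1 and -0.12 with sgL1ASP #3, lower than those of ADAR. The short gene AL606500.1 overlaps ADAR on the opposite strand. In unscaled FPKM, 53.2% of all genes changed more than ADAR with sgL1ASP #1, and 79.3% with sgL1ASP #3. The interferon-inducible and the constitutive isoform of ADAR are summed in these values. The other editing enzyme ADARB1 had FPKM 12.4, 12.4 and 11.7, and ADARB2, ADAD1 and ADAD2 were listed at 0 in every library. ADAR had 3.83 times the FPKM of ADARB1 in mock, 4.04 times with sgL1ASP #1 and 4.16 times with sgL1ASP #3.

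Among the factors that act on cDNA, SAMHD1 had an even level. Its FPKM was 21.1 in mock, 20.2 with sgL1ASP #1 and 21.0 with sgL1ASP #3, and its highest value was 1.04 times its lowest. The ratio to mock was 0.957 (0.838 to 1.09) with sgL1ASP #1 and 0.997 (0.870 to 1.14) with sgL1ASP #3. After scaling to a common sum its log2 change was -0.16 and -0.12, beside medians of -0.092 and -0.12 over all genes. SAMHD1 lies on chromosome 20 from 35518632 to 35580296 on the minus strand, and its 3′ end overlaps TLDC2, which ends at 35522638 on the opposite strand. SAMHD1 works against ribonucleotide reductase, which makes dNTPs. The large subunit gene RRM1 had 4.13 times the FPKM of SAMHD1 in mock, 4.23 times with sgL1ASP #1 and 4.09 times with sgL1ASP #3. For the S-phase small subunit gene RRM2 this was 1.48, 1.64 and 1.63 times. Ratios of this kind are taken within a library and do not depend on the scaling between libraries.

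TREX1 had FPKM 5.46 in mock, 5.88 with sgL1ASP #1 and 4.70 with sgL1ASP #3. It was highest in sgL1ASP #1 and lowest in sgL1ASP #3. The ratio to mock was 1.08 (0.710 to 1.64) with sgL1ASP #1 and 0.860 (0.541 to 1.38) with sgL1ASP #3, and between the guides it was 1.25 (0.789 to 1.98). A larger change between the guides was seen in 10.97% of all genes. About 47 reads were estimated in mock, 50 with sgL1ASP #1 and 34 with sgL1ASP #3, so few that the intervals do not exclude a change of 1.5-fold. The paralog TREX2 had FPKM 3.54, 2.39 and 4.16, lowest in sgL1ASP #1, with a ratio to mock of 0.675 (0.418 to 1.06) there. After scaling to a common sum the ratio was 0.633 (0.391 to 0.993), beside a median log2 change of -0.092 over all genes.

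The reads of TREX1 are also uncertain in their assignment. The gene occupies chromosome 3 from 48507210 to 48509044, all of it inside ATRIP, the gene of a DNA damage kinase partner, which runs on the same strand from 48488114 to 48509044. Reads from shared sequence can be given to either gene. ATRIP had FPKM 12.6 in mock, 13.3 with sgL1ASP #1 and 14.2 with sgL1ASP #3, so it was highest in the library in which TREX1 was lowest. TREX1 held 30.2% of the summed FPKM of the pair in mock, 30.6% with sgL1ASP #1 and 24.9% with sgL1ASP #3. The sum itself was 18.1, 19.2 and 18.9. Whether reads moved between the genes was not tested.

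The subunits of RNase H2 stand in equal number in the enzyme, but their genes had unequal FPKM. RNASEH2A, the catalytic subunit, had FPKM 137 in mock, 143 with sgL1ASP #1 and 147 with sgL1ASP #3, lowest in mock. The ratio to mock was 1.04 (0.961 to 1.13) and 1.07 (0.986 to 1.17). RNASEH2C had FPKM 85.5, 78.3 and 82.3, highest in mock, with a ratio of 0.915 (0.847 to 0.989) for sgL1ASP #1 and 0.962 (0.888 to 1.04) for sgL1ASP #3. RNASEH2B, which binds the replication clamp PCNA, had FPKM 32.8, 35.7 and 33.2, with ratios of 1.09 (0.947 to 1.25) and 1.01 (0.872 to 1.17).

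With sgL1ASP #1 the interval of RNASEH2C lies below 1, while the point values of RNASEH2A and RNASEH2B lie above it. After scaling to a common sum the ratio of RNASEH2C lay below 1 with both guides, at 0.858 (0.794 to 0.927) and 0.885 (0.818 to 0.960). Its log2 changes were then -0.22 and -0.18, beside medians of -0.092 and -0.12 over all genes. A larger change than that of RNASEH2C with sgL1ASP #1 in unscaled FPKM was seen in 37.8% of all genes. RNASEH2C lies on chromosome 11 from 65481476 to 65488289 and overlaps KAT5, an acetyltransferase gene on the opposite strand from 65479467 to 65487075. KAT5 had FPKM 29.5 in mock, 25.0 with sgL1ASP #1 and 21.4 with sgL1ASP #3. The values were calculated in a strand-specific mode, and the part of KAT5 in the RNASEH2C value was not tested. RNASEH2A is on chromosome 19 from 12917398 to 12924454. Nearly all of it lies within THSD8 on the same strand, from 12912845 to 12924395, and within HOOK2 on the opposite strand. THSD8 was not found under that symbol in the libraries. How reads from the shared sequence were assigned was not tested. RNASEH2B is on chromosome 13 from 51483883 to 51598256, where RNASEH2B-AS1 and GUCY1B2 overlap its ends on the opposite strand.

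The FPKM ratio of any 2 subunits differed by at most 1.19-fold between libraries. RNASEH2A made up 53.7% of the summed FPKM of the 3 genes in mock, 55.6% with sgL1ASP #1 and 56.0% with sgL1ASP #3. RNASEH2C made up 33.5%, 30.5% and 31.3%, and RNASEH2B 12.8%, 13.9% and 12.6%. RNASEH2A had 4.19, 4.003 and 4.43 times the FPKM of RNASEH2B, and 1.61, 1.83 and 1.79 times that of RNASEH2C. The widest shift was in RNASEH2C, which had 2.61, 2.19 and 2.48 times the FPKM of RNASEH2B. RNASEH1, the gene of the other RNase H of human cells, had FPKM 13.003, 14.8 and 15.0. Its ratio to mock was 1.14 with sgL1ASP #1 (1.03 to 1.26) and 1.15 with sgL1ASP #3 (1.04 to 1.29), and these intervals lie above 1. After scaling to a common sum they hold 1, with ratios of 1.07 (0.962 to 1.18) and 1.06 (0.953 to 1.18). The median log2 changes over all genes at this scaling were -0.092 and -0.12, so these ratios lie above that of the median gene.

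**Figure D3:**
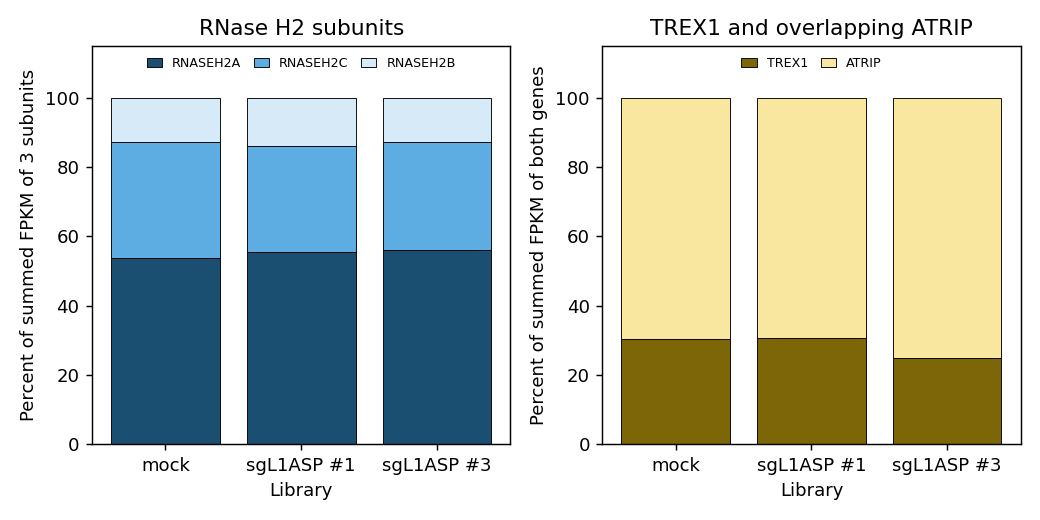
Bars give, for each library, the percent of summed FPKM held by RNASEH2A, RNASEH2C and RNASEH2B among the RNase H2 subunits (left) and by TREX1 and the overlapping ATRIP (right). RNASEH2A holds between 53.7% and 56.0% of the subunits, and the share of TREX1 is lower in sgL1ASP #3 (24.9%) than in the other libraries.

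Genes that work with or beside these factors were followed as lists. Outside the 8 members, 69 genes of the L1 restriction pathways were matched, 53 of them with mean FPKM of at least 1. Of these 53, 0 were more than 1.5-fold higher and 0 more than 1.5-fold lower than mock with either guide. The count was thus also 0 of 53 with each guide alone. Of all 12830 genes, 3.55% were past this limit with sgL1ASP #1 and 3.80% with sgL1ASP #3. The share of all genes past it with either guide was not computed, so no conclusion is drawn from the 0. TREX2 passed the limit when libraries were rescaled to the same FPKM sum. The 21 RNA decay partners of MOV10 and ZC3HAV1, among them UPF1, Argonaute, exosome and decapping genes, all had mean FPKM of at least 1. Their median log2 change was -0.018 with sgL1ASP #1 and 0.038 with sgL1ASP #3. Above mock were 10 of the 21 with sgL1ASP #1, beside 50.3% of all genes, and 17 with sgL1ASP #3, beside 50.4%. After scaling to a common FPKM sum this was 3 of 21 with either guide, beside 25.0% and 20.8% of all genes. They ranged from the ZAP cofactor TRIM25, with FPKM 4.07, 4.13 and 4.28, to the exosome nuclease EXOSC10, with 93.8, 91.2 and 94.6.

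Of 9 other factors that act on L1 RNA, 6 had mean FPKM of at least 1, with a median log2 change of 0.039 and -0.031. The Microprocessor subunit DGCR8 was the highest, with FPKM 25.5, 25.9 and 23.5, while the oligoadenylate synthetase genes OAS1 and OAS2 were listed at 0 in every library. The 11 genes of dNTP supply and of the kinases that phosphorylate SAMHD1 had a median change of 0.029 with sgL1ASP #1 and -0.0011 with sgL1ASP #3. They ranged from RRM2B, a reductase subunit under p53, with FPKM 6.45, 7.39 and 6.45, to the thymidine kinase gene TK1, with 140, 132 and 140. The 8 genes of hybrid and flap processing had a median change of 0.012 and -0.028. They ranged from the nuclease gene ERCC4, with FPKM 4.86, 4.43 and 4.98, to PCNA, with 278, 271 and 261.

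Most sensors of cytosolic or endosomal nucleic acid had low FPKM in this line. Of 13 sensor and adaptor genes, 4 had mean FPKM of at least 1 and 3 (AIM2, ZBP1 and TLR3) were listed at 0 in every library. The 4 had a median log2 change of -0.074 with sgL1ASP #1 and -0.083 with sgL1ASP #3. IRF3, a transcription factor downstream of some of these sensors, was the highest, with FPKM 41.9, 40.2 and 39.1.

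MOV10, ZC3HAV1, SAMHD1, TREX1 and the long ADAR isoform can be induced by interferon, so a list of 13 interferon-stimulated genes was set beside them. MX1, CXCL10 and IFNB1 were listed at 0 in every library, and 4 of the 13 had mean FPKM of at least 1. Of these 4, BST2, a membrane tether of budding virus, was more than 1.5-fold higher with both guides. IFI6, a mitochondrial protein gene, was more than 1.5-fold lower with sgL1ASP #1, but not with a pseudocount of 1. Of all 12830 genes, 3.55% were past this limit with sgL1ASP #1 and 3.80% with sgL1ASP #3. The share among genes of like FPKM was not computed. BST2 was under FPKM 1 in mock and entered through the guide libraries in which it was higher, so its count is no support for a change. BST2 had FPKM 0.781 in mock, 1.45 with sgL1ASP #1 and 1.88 with sgL1ASP #3, on an estimated 7, 12 and 13 reads. Its ratio to mock was 1.86 (0.631 to 5.21) with sgL1ASP #1 and 2.41 (0.826 to 6.59) with sgL1ASP #3, so both intervals hold 1. IFI6 had FPKM 7.12, 4.57 and 5.11, with a ratio of 0.641 (0.387 to 1.04) and 0.717 (0.439 to 1.19). ISG15, a ubiquitin-like modifier and the highest of the list, had FPKM 15.4, 16.8 and 20.8.

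The promoters of the 8 factors and of the interferon-stimulated genes were compared by sequence, since the interferon-stimulated response element gives a shared readout. The core GAAANNGAAA was searched on both strands from 250 bases before to 50 bases after the start sites in RefSeq (GRCh38.p14). It occurs in 4.38% of 27305 genes. It was found in 0 of the 8 factors, over 13 windows, and in 8 of the 9 listed interferon-stimulated genes that have a window. At the share over all genes, 8 genes hold less than a single match on average, so the 0 does not set the factors apart. The interferon-stimulated genes were listed as such beforehand, so the contrast with them is no test of the factors. No match says only that these letters are not in the window. The 3 windows below are those of the interferon-stimulated genes described above, with the first core found in capitals. In BST2 and ISG15 a further core overlaps its end and runs on in small letters.

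BST2, chr19:17405741-17405770, minus strand: tcctttctggGAAACTGAAActgaaaacct

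ISG15, chr1:1013374-1013403, plus strand: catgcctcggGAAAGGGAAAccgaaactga

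IFI6, chr1:27672329-27672358, minus strand: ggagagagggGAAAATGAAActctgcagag

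The core in capitals lies 121 bases before the start site of BST2, 104 before that of ISG15 and 147 before that of IFI6. With sgL1ASP #1 the ratios of these 3 genes to mock had counting intervals that hold 1, except that of IFI6 after scaling to a common sum (0.363 to 0.974). That scaling put the median log2 change over all genes at -0.092 with sgL1ASP #1.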

How the data were processed

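RNA-seq of 293T cells with dCas9-VP64 and mock, sgL1ASP #1 or sgL1ASP #3 was used, with 1 library per condition, assigned from the labels. The authors prepared stranded mRNA libraries, mapped 75-base single-end reads to hg19 with TopHat2 2.0.13, Bowtie2 2.2.3 and SAMtools 0.1.19, and deposited FPKM per gene from Cufflinks 2.2.1 (Cuffdiff, strand-specific mode). The gene annotation and the scaling between libraries are not given in the sources used here.

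The deposited FPKM were not rescaled. Changes were taken as differences in log2(FPKM + 0.1), which understates changes of low genes, over genes with mean FPKM of at least 1 and with a limit of 1.5-fold. Depth came from the FPKM steps of single-transcript genes above 1000 bases in length (45 to 66 genes in the peak), less 200 bases for the fragment. Counting intervals (95%, exact binomial) used the median coding transcript length of GENCODE 44 lifted to GRCh37, which also gave the coordinates. Isoform use makes the reads approximate. Older gene names were matched through RefSeq synonyms.

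The members and the lists were chosen with earlier results of these data known. Named are all members, their paralogs and the overlapping genes that have a symbol, and in each list the highest and lowest gene and those past 1.5-fold. RRM1 and RRM2 were named after their values were seen. Alternatives were other pseudocounts, scalings, filters and fold limits. The procedures were tested on simulated data, in which the intervals were given the known depth and length. This does not test them at estimated depths and lengths. Python 3.11.15 was used with SciPy 1.17.1, NumPy 2.4.6, matplotlib 3.10.9 and pandas 2.3.3.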

Additional observations from a re-analysis of the deposited data

How the results depend on the processing

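The number of members past 1.5-fold was 0 in each comparison with either pseudocount, with either rescaling and with a 2-fold limit. With a 1.1-fold limit it was 1 for sgL1ASP #1 against mock, 2 for sgL1ASP #3 against mock and 1 between the guides. Scaling the FPKM of every library to 1 common sum moved the median change of the members with sgL1ASP #3 from 0.020 to -0.099. The number of members above mock went from 5 to 3 with sgL1ASP #1 and from 5 to 1 with sgL1ASP #3. The share of all genes above mock went from 50.3% to 25.0% with sgL1ASP #1 and from 50.4% to 20.8% with sgL1ASP #3. This scaling also turned the sign of 7 of the 24 changes of single members, while the other pseudocounts and the median-ratio rescaling turned 0. The share of all genes past 1.5-fold was 12.3%, 12.6% and 12.9% (sgL1ASP #1, sgL1ASP #3, between guides) when all genes with FPKM above 0 were counted, and was 1.87%, 2.04% and 2.02% with FPKM of at least 1 in every library. The alternatives for the lists were chosen after seeing the data. Rescaling to the same sum put 1 paralog, TREX2, past the limit, and a pseudocount of 1 left 1 interferon-stimulated gene, BST2, of 2. The other 5 lists tried kept a count of 0, and the marker lists were not tried. Scaled to a common sum, also chosen after seeing the data, the counting intervals of 5 of the 24 member ratios excluded 1, against 2 in unscaled FPKM. The 5 were MOV10 and RNASEH2C with sgL1ASP #1, ADAR and RNASEH2C with sgL1ASP #3, and ADAR between the guides. This scaling put the median log2 change over all genes at -0.092 and -0.12 against mock. The share of all genes whose interval excludes 1 was not computed, so these counts do not set the members apart. The depth limits TREX1 most, with an estimated 34 to 50 reads per library. No paired analysis was possible because only 1 library was made per condition.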
